A study of Mus musculus and Sus scrofa with 12 samples.

Results

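In the forelimb of the day 23 pig embryo, 5985 of the 18713 called H3K4me3 peaks (32.0%) overlapped an H3K4me1 peak and no H3K27ac peak, by 1 bp or more in the lists the authors deposited. They are called H3K4me3/H3K4me1 peaks here. Of the other pig H3K4me3 peaks, 8051 (43.0%) carried all 3 modifications, 2520 (13.5%) overlapped H3K27ac and no H3K4me1, and 2157 overlapped neither. These peak overlaps chose the members, so they are given as a description with no test. With the wider 50% of the peaks of each list the class held 2212 peaks. The study mapped the 3 histone modifications in forelimbs of mouse and pig embryos. The labels list 12 samples, 2 for each species and modification. The embryos were wild type and came from natural mating, pigs at day 23 of gestation and mice at E11.5. Forelimbs were taken from littermates, so each sample is whole limb tissue of several cell types, and the labels describe no sorting. The sources differ on the pig H3K4me1 list, which rests on 1 biological replicate by the design text and on 2 samples by the labels. Membership rests on that list.

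Each modification of each species came as 1 consensus list of peak positions, with no height, score or value per sample. No spread between embryos could be computed, and the depth of the libraries is unknown. Shares are therefore given with 95% Wilson intervals, which cover counting error only, and no test between classes was possible, because peaks and genes are not replicates of an animal. A peak that was not called is not a measured absence of the modification. The pig lists held 27566 H3K27ac and 103373 H3K4me1 peaks, with median widths of 1164 and 3033 bp. In mouse, where 18353 H3K4me3 peaks were called, their median width was 3308 bp against 1679 bp in pig. Of 40 listed regulators of limb mesenchyme, 32 had an H3K27ac peak within 1 kb of a transcription start site (TSS) in pig. The share of all 20653 protein-coding genes was 46.7%. The same count was 16 of 137 for listed regulators of other tissues, but 15 of 17 for housekeeping genes and 72 of 80 for ribosomal proteins. A high share is therefore not particular to limb genes and does not check the tissue label.

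H3K4me3 is placed at the starts of genes, above all at those rich in the dinucleotide CpG. H3K27ac is added by the acetyltransferases p300 and CBP at promoters and enhancers in use, and H3K4me1 lies at enhancers and on the flanks of promoters. A CpG-rich promoter can keep H3K4me3 while its gene is silent, and in embryos many such promoters of developmental regulators also carry the Polycomb mark H3K27me3, a state called bivalent. H3K27me3 and RNA are not analysed here, so neither bivalency nor the use of a gene can be read from these lists.

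The sequences below are promoters of 3 regulators, each the gene with the widest H3K4me3/H3K4me1 peak in a developmental list, and of 1 housekeeping gene with all 3 modifications. They are shown because they differ in CpG content while carrying the same combination of marks in pig, GAPDH excepted. PROX1 (chr9:129580224-129580523, minus strand) acts in liver and lymphatic development. LHX9 (chr10:20742531-20742830, plus strand) acts in the gonad and also in limb mesenchyme, and KLF4 (chr1:248609129-248609428, minus strand) is a pluripotency and epithelial factor. GAPDH (chr5:64133937-64134236, minus strand), a glycolytic enzyme, is the gene with all 3 marks. Each runs 5′ to 3′ from 250 bases before to 50 bases after the TSS, from the RefSeq assembly Sscrofa11.1, with CpG dinucleotides in capitals. For PROX1, LHX9 and KLF4 this is an annotated TSS under the peak and not the 5′ end of the gene record.
PROX1: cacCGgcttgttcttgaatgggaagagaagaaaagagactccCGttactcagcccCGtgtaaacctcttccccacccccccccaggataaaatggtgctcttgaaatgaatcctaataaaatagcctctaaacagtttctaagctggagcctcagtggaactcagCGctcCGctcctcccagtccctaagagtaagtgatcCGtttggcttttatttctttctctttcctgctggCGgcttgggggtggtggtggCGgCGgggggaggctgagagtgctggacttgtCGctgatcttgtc
LHX9: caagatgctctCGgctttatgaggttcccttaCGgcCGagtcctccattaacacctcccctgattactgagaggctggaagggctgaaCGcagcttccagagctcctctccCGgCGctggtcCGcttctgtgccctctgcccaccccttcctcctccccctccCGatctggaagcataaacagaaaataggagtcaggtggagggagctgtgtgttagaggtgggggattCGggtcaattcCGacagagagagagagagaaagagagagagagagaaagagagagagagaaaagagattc
KLF4: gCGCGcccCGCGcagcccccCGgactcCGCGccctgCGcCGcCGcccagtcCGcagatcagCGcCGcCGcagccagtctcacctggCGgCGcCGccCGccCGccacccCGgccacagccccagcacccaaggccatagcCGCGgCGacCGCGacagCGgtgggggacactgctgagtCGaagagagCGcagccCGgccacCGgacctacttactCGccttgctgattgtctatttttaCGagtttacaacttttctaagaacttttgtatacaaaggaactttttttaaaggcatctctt
GAPDH: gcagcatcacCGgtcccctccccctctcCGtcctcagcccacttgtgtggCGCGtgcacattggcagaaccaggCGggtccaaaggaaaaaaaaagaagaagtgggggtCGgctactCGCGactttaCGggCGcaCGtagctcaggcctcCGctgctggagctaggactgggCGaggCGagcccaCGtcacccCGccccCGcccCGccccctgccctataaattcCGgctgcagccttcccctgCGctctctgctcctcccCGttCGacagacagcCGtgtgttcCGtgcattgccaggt
The 300 bases held 32 CpGs at KLF4, against 24 at GAPDH. PROX1 and LHX9 held 10 each. The promoters were picked for their differing CpG content. The counts therefore say only that wide H3K4me3/H3K4me1 peaks were called over some promoters richer and some poorer in CpG than that of GAPDH.

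H3K4me3/H3K4me1 peaks had a median width of 1652 bp (quartiles 1199 to 2185), between 1861 bp for peaks with all 3 marks and 1067 bp for H3K4me3 alone. H3K4me1 lay over most of such a peak. It covered a median of 94.0% of the peak, against 40.1% where H3K27ac was also present, and it spanned the whole peak in 46.3% (45.1 to 47.6) against 18.1% (17.3 to 19.0). The centre of the peak was covered in 67.9% against 35.2%. In 2742 of the 5985 peaks H3K4me1 reached 1 end only. Where such a peak sat at coding TSSs of a single strand, that end was the downstream one in 80.9% (1378 of 1703), and with all 3 marks it was in 86.0%. Over all peaks, H3K4me1 was therefore broader over the H3K4me3 in this class than with all 3 marks. Where it reached 1 end only, that end was mostly on the side of the gene body in both classes. The classes differ in place, since 38.1% of these peaks lay away from any annotated TSS, against 17.5% with all 3 marks. The coverage of whole peaks was not split by this.

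Coverage around the TSS was read every 50 bp. At the TSS itself, H3K4me1 covered 48.4% of the 3556 H3K4me3/H3K4me1 peaks at coding genes and 17.2% of the 6460 with all 3 marks. At 1 kb downstream the shares were 81.2% and 73.6%. The mouse orthologs, whose peaks the choice did not use, gave 27.2% and 10.3% at their 5′ TSS. For H3K27ac in mouse the shares at the TSS were 21.7% and 64.1%. The dip of H3K4me1 over the TSS was thus shallower in both species at the genes chosen in pig for lacking H3K27ac.

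**Figure D1:**
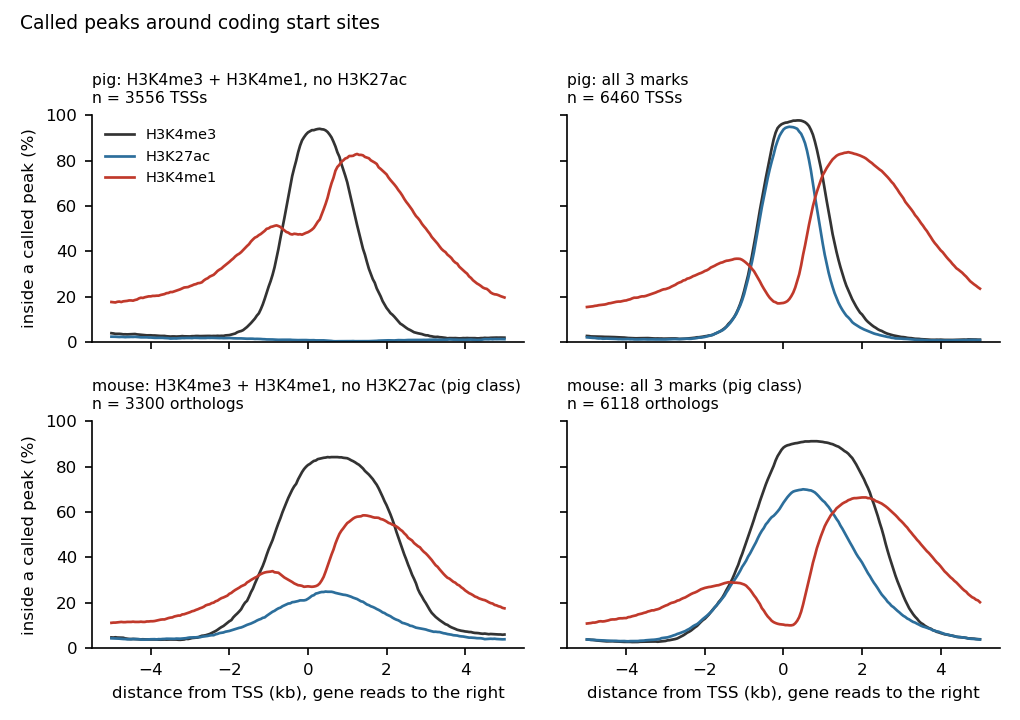
Share of TSSs covered by each modification (vertical axis, percent) by distance from the TSS (horizontal axis, kb, downstream to the right), in pig and at the mouse orthologs, for genes with an H3K4me3/H3K4me1 peak and for genes with all 3 marks in pig. H3K4me1 at the TSS stands at 48.4% and 17.2% in pig and at 27.2% and 10.3% in mouse; the pig H3K27ac curves are set by the choice of members.

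Distance to H3K27ac varied widely among the peaks. The nearest H3K27ac peak lay at a median of 23.3 kb (quartiles 9.54 to 53.9), with 300 peaks within 1 kb of one and 736 (12.3%) more than 100 kb away. At coding TSSs just inside the rule, the peak at SKI, a repressor of TGF-beta signalling, ended 15 bp from H3K27ac. The next gaps were 162 bp at LOC100514340, 182 bp at the peak shared by ATF6B and FKBPL, and 194 bp each at EFNB3 and ELN. At coding TSSs just outside it, BBC3 overlapped H3K27ac by 240 bp, LOC110258916 by 283, MTA1 by 287, C3H16orf62 by 294 and LOC110256816 by 309. Few peaks lay at this border, TSSs or not: 1 of the 5985 had H3K27ac within 100 bp, 1 of the 8051 with all 3 marks had 100 bp or less of it, and peaks with all 3 marks were covered by H3K27ac over a median of 86.8% of their width. The border to H3K4me1 was less sharp, since 141 peaks (2.36%) had under 10% of their width covered by it. PRDM1, a regulator of germ cells and B cells, is such a case, with 0.0770% covered.

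Of the H3K4me3/H3K4me1 peaks, 61.9% (60.7 to 63.1; 3705 peaks) lay within 1 kb of an annotated TSS. The share was 82.5% with all 3 marks, 81.8% with H3K27ac and no H3K4me1, and 44.2% for H3K4me3 alone. Of the 3705 peaks, 3556 lay at a protein-coding TSS and 149 at noncoding TSSs alone, and the other 2280 lay elsewhere. They marked 3724 protein-coding genes (1877 with the wider 50% of peaks, and 2349 where H3K4me1 had to cover 50% of the peak), which is 18.0% of the 20653 annotated and 27.8% of the 13409 with any H3K4me3 at a TSS. These 2 percentages are the background for the counts below of listed genes with such a peak. For the marks at mouse orthologs of the genes, the background is the share over all 3300 orthologs of the class, 45.5% with the same combination and 32.3% with H3K27ac, where all 14946 orthologs gave 22.6% and 52.1%. The choice of members largely sets how many of the genes lacked H3K27ac at their starts. For 3352 (90.0%) no H3K27ac peak was called within 1 kb of any TSS. A separate H3K4me3 peak, with H3K27ac, lay within 1 kb of a TSS in 312 (8.38%). An H3K27ac peak lay somewhere in the gene record of 29.4% of the 3724 genes. The genes were shorter, with a median of 21.3 kb against 30.5 kb for genes with all 3 marks, and fewer of their peaks served TSSs on both strands, 8.27% against 14.2%.

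Most listed regulators of tissues outside the limb that had H3K4me3 had an H3K4me3/H3K4me1 peak. Over 5 lists (neural, endoderm, heart, kidney and gonad, pluripotency and germ line), 55 of the 75 genes with H3K4me3 had an H3K4me3/H3K4me1 peak (73.3%, 62.4 to 82.0), against 27.8% of all genes with H3K4me3. A further 62 of the 137 annotated genes had no H3K4me3 at all. The lists are short, so they do not say how many of the 3724 genes regulate other tissues. Whether genes of the class were weakly used could not be measured, because no RNA was available here.

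The neural list was the fullest. Of 74 transcription factors of the nervous system, 36 had H3K4me3, and 32 of those had an H3K4me3/H3K4me1 peak (88.9%, 74.7 to 95.6). None of the 32 had H3K27ac called within 1 kb of a TSS. The choice of members largely sets this, and 90.0% of all genes of the class had none. Among the widest peaks were those of SIM2 (3651 bp), NKX6-1 (2906), SOX21 (2883) and LHX4 (2858). NKX6-1, of the ventral spinal cord and pancreas, SOX21, of neural progenitors, and LHX4, of motor neurons and pituitary, were 72.0, 105 and 102 kb from the nearest H3K27ac peak. Further ones were INSM1 (2605 bp), ONECUT2 (2569), LBX1 (2415), GBX2 (2359) and SOX1 (2297). H3K4me1 covered the whole peak at NKX6-1, SOX21, LHX4 and INSM1, a factor of neuroendocrine cells, but 37.6% of it at ONECUT2 and 58.4% at GBX2, of the midbrain-hindbrain border. LBX1 also marks the muscle precursors that migrate into the limb. Of the 32 mouse orthologs, 15 had the same combination in mouse, 11 had H3K4me3 alone, 4 had none and 2 had all 3 marks. Those 2, DBX2 and SIM1, were named after their values were seen.

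The other 4 lists were smaller. In endoderm 6 of 10 genes with H3K4me3 had such a peak, namely PROX1 (2529 bp), ONECUT1, HHEX, FOXA1, KLF5 and GATA4. These are factors of liver, pancreas and gut, and none of the 6 had H3K27ac in mouse. In heart it was 5 of 10 (23.7 to 76.3, an interval that includes the 27.8% of all genes with H3K4me3). The 5 were HEY1 (2645 bp), GATA5, MYOCD, NKX2-6 and TBX20, again without H3K27ac in mouse. Kidney and gonad gave 7 of 13, and here the list overlaps with the limb, since LHX9, OSR1 and SALL4 are also on the limb mesenchyme list. OSR1 and SALL4 had no H3K4me3/H3K4me1 peak at a TSS. Besides LHX9, the genes with one were FOXL2 (2907 bp), the ovarian factor, FOXC2, WT1, DMRT1, GATA3 and TCF21. LHX9 (2976 bp) was the one with H3K27ac within 1 kb of a TSS in pig, and in mouse it had all 3 marks. Pluripotency and germ line gave 5 of 6, with KLF4 (3314 bp), TFAP2C (2968), T (2612), PRDM1 (2596) and MIXL1 (1713). T, brachyury, and MIXL1 are mesoderm factors of the gastrula and had the same combination in mouse, while KLF4 and PRDM1 had all 3 marks there.

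**Figure D2:**
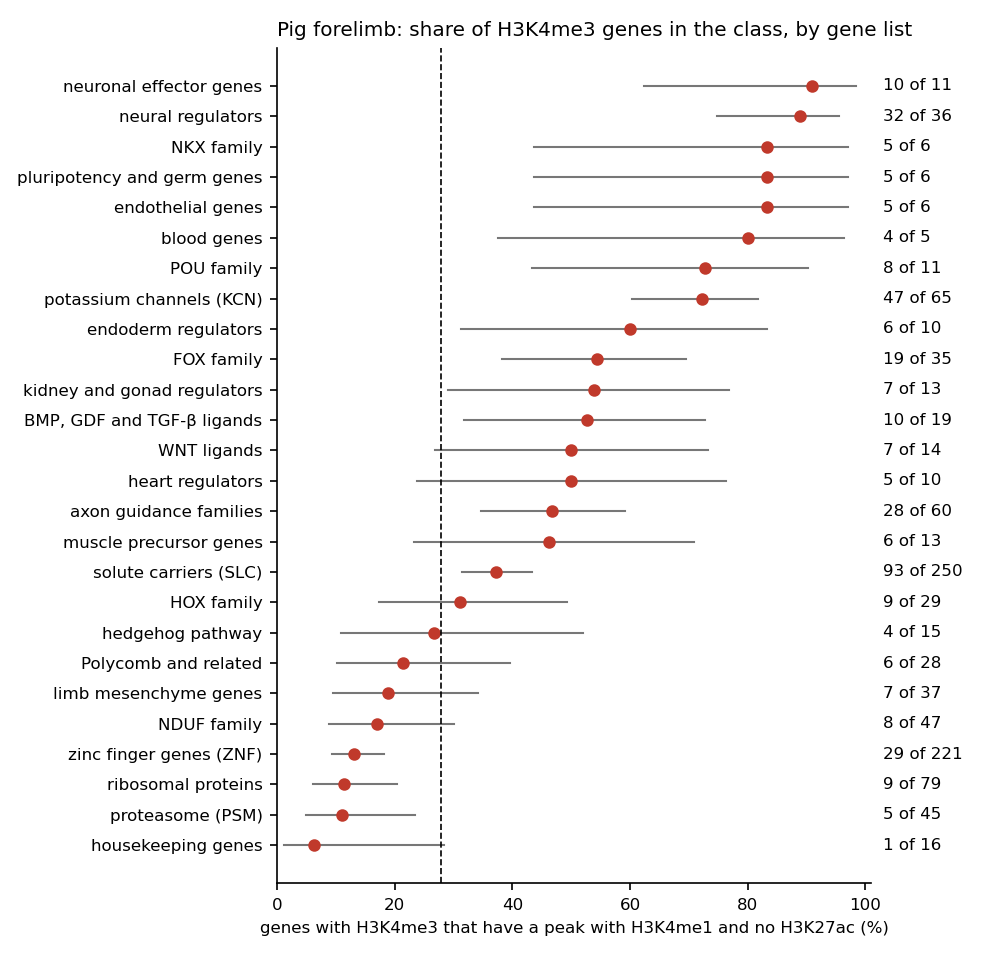
Share of the genes with H3K4me3 that had an H3K4me3/H3K4me1 peak (horizontal axis, percent, with 95% Wilson intervals as bars) for the main gene lists and families, with the count beside it and the 27.8% of all genes with H3K4me3 as a line. The neural regulators stand at 88.9%, potassium channels at 72.3%, limb mesenchyme at 18.9% and ribosomal proteins at 11.4%.

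Families of developmental transcription factors were counted without regard to tissue, with the KLF and SP genes apart. Of their 147 genes with H3K4me3, 76 had an H3K4me3/H3K4me1 peak (51.7%, 43.7 to 59.6). Counts were 19 of 35 for forkhead, 8 of 11 for POU, 5 of 6 for NKX, 4 of 5 each for GATA and DLX, and 7 of 14 for SOX. The SOX interval (26.8 to 73.2) includes the 27.8% of all genes with H3K4me3. Among the widest forkhead peaks were those of FOXF1 (3837 bp), FOXC1 (3314), FOXI2 (3240), FOXB1 (2951), FOXH1 (2915), FOXL2, FOXD2 (2858), FOXQ1 (2810) and FOXC2. FOXF1, a factor of visceral mesoderm, had the same combination in mouse, and FOXC1, of skeletal and eye development, had all 3 marks there. The NKX genes included NKX2-4, NKX2-6, NKX3-2 and NKX6-1, and the GATA genes were GATA2, GATA3, GATA4 and GATA5. DLX5 (4031 bp) and DLX2 (3195 bp) had all 3 marks in mouse, and DLX1 (2979 bp) and DLX4 (1648 bp) had H3K4me3 alone. DLX5 and DLX2 act in the apical ridge of the limb bud as well as in the face and forebrain. Of the sine oculis and EYA genes 1 of 9 had one (1.99 to 43.5), SIX6, an eye factor. HOX genes gave 9 of 29 (17.3 to 49.2), and the KLF and SP genes 8 of 23 (18.8 to 55.1). These intervals also include 27.8%. The 9 HOX genes included HOXA2, HOXB1, HOXB7, HOXB13, HOXC4, HOXC6, HOXC9 and HOXC10. No HOXD gene was among them. HOXA2, HOXC4 and HOXC6 also had H3K27ac within 1 kb of a TSS. HOXA2 and HOXB1 act in the hindbrain, and HOXB13 in the tail and prostate.

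Hindlimb regulators gave 3 of 5 genes with H3K4me3 (23.1 to 88.2), an interval that includes the 27.8% of all genes with H3K4me3. TBX4, the T-box gene of the hindlimb, had an H3K4me3/H3K4me1 peak of 1917 bp with H3K27ac 3.27 kb away, and HOXC9 and HOXC10 had peaks of 2537 and 1493 bp. PITX1, upstream of TBX4, and HOXC13 had H3K4me3 alone, and HOXC11 and HOXC12 had none. None of the 7 listed genes had H3K27ac at a TSS in pig. In mouse, TBX4 and HOXC10 had H3K4me3 alone and HOXC9 had none.

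For regulators of limb mesenchyme the share could not be told from that of all genes. Of 40, 37 had H3K4me3 and 7 of those (18.9%, 9.48 to 34.2) had an H3K4me3/H3K4me1 peak at a TSS. The interval includes the 27.8% of all genes with H3K4me3. Where G+C content within 50 kb on each side was below 50%, the count was 5 of 28 (17.9%), against 19.5% of all. LHX9, OSR2, SALL1 and ETV4 also had a separate H3K4me3 peak that overlapped H3K27ac within 1 kb of a TSS, and in LHX9, OSR2 and ETV4 the H3K27ac peak itself reached that window. The nearest H3K27ac was 3.07 kb from the peak of LHX9, 1.88 kb from OSR2, 0.862 kb from SALL1 and 7.28 kb from ETV4. TBX2, a repressor in the limb margins, was 0.497 kb from one. For HIC1 and PAX9, H3K27ac was 37.3 and 206 kb away. HIC1 marks mesenchymal progenitors of the limb, and PAX9 acts in limb and tooth. In mouse, 6 of the 7 had all 3 marks and TBX2 had H3K4me3 alone. Of the cartilage genes, BARX2, NKX3-2, ACAN and SOX6 had such a peak, 4 of 11 (15.2 to 64.6), an interval that also includes 27.8%. SOX6 also had H3K27ac within 1 kb of a TSS.

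A dissected limb also holds muscle precursors, vessels, blood, nerve sheath and ectoderm, and their genes were counted in the same way. In muscle precursors 6 of 13 had an H3K4me3/H3K4me1 peak: MYOD1 (3105 bp), MYF5 (2435), LBX1 (2415), PAX3 (2331), MYF6 (1625) and MSC (1531). MYOD1, MYF5 and MYF6 are the muscle-determining factors, and their peaks were 125, 302 and 293 kb from H3K27ac. Endothelial genes gave 5 of 6, with TIE1, SOX18, KDR, FLI1 and TAL1, and blood genes 4 of 5, with IKZF1, EPOR, CD34 and NFE2. No H3K4me3 was called at a TSS for 7 of the 13 annotated endothelial genes and 8 of the 13 blood genes. Neural crest and glia gave 4 of 7, namely NGFR, ERBB3, EDNRB and MITF, and all 4 had the same combination in mouse. Limb ectoderm gave 6 of 10, with ESRP1 (4036 bp), TFAP2C, WNT7A, KRT18, KRT8 and GRHL2. H3K4me3 was also not called for 3 of 16 muscle, 5 of 12 neural crest and glia and 5 of 15 ectoderm genes. KRT8, GRHL2 and FLI1 also had H3K27ac within 1 kb of a TSS. In whole tissue, H3K27ac in a rare cell type and its absence cannot be told apart.

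Signalling molecules made up a further set. Among WNT ligands 7 of 14 with H3K4me3 had an H3K4me3/H3K4me1 peak: WNT6 (3110 bp), WNT7A (2733), WNT2 (2372), WNT9B (2331), WNT9A (2255), WNT16 (2161) and WNT3A (1959). All 7 had the same combination in mouse. Among FGF ligands 6 of 14 did, FGF18 (3231 bp), FGF16, FGF14, FGF20, FGF12 and FGF23, and all 6 had it in mouse too, against 45.5% of the orthologs of the class. FGF18 acts in bone growth, FGF23 is a bone-derived hormone of phosphate balance, and FGF12 and FGF14 stay inside neurons and bind sodium channels. BMP, GDF and TGF-beta ligands gave 10 of 19, of which 5 had the same combination in mouse. GDF6 (3894 bp), a joint factor, TGFB1 (3306 bp) and BMP6 (2792 bp) were the widest. BMP4, TGFB3 and, among the FGF ligands, FGF12 also had H3K27ac within 1 kb of a TSS in pig. The intervals for WNT ligands (26.8 to 73.2) and FGF ligands (21.4 to 67.4) include the 27.8% of all genes with H3K4me3. The interval for BMP, GDF and TGF-beta ligands (31.7 to 72.7) lies above it.

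SHH, the ligand made in the posterior limb margin, had one of the widest peaks, 4288 bp at chr18:2545965-2550252, with H3K4me1 over 36.6% of it and H3K27ac 30.8 kb away. Its mouse ortholog had the same combination. Other hedgehog genes with a peak were SUFU, an inhibitor of the pathway, CDON, a co-receptor, and DISP1, which releases the ligand, 4 of 15 in all. CDON and DISP1 also had H3K27ac within 1 kb of a TSS. Among Notch genes 4 of 16 had a peak, the receptor NOTCH1 (3615 bp), the glycosyltransferases RFNG (3829 bp) and LFNG, and the target HEY1. All 4 had the same combination in mouse.

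The other peaks among the widest at coding TSSs were those of MN1 (5763 bp), the peak shared by IRX2 and C16H5orf38 (4852), PRDM16 (4758), CAPN10 (4345), TRIM8 (4325), EGFL7 (4309), the peak shared by ACAP3 and PUSL1 (4217) and BCL9L (4196). MN1 is a transcriptional coregulator of craniofacial development, IRX2 an Iroquois homeobox factor, and PRDM16 a factor of brown fat, palate and heart. EGFL7 is an endothelial gene. In mouse, TRIM8 and EGFL7 had the same combination, and PRDM16, CAPN10, ACAP3, PUSL1 and BCL9L had all 3 marks.

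Genes of differentiated neurons and muscle were also counted. Of 23 neuronal effector genes 11 had H3K4me3, and 10 of those had an H3K4me3/H3K4me1 peak (90.9%, 62.3 to 98.4). They included GAP43 (2179 bp), SYT1 (2081), NEFL (2002), SNAP25 (1935 and 1306, at 2 TSSs), GRIA2, CHGA, SLC6A4, SYP and STMN2. SYT1, SNAP25 and SYP are proteins of synaptic vesicles and their fusion, and SYT1 was 408 kb from H3K27ac. In mouse 8 of the 10 had the same combination and none had H3K27ac. Heart muscle effectors gave 3 of 4, TNNI3, ACTC1 and ACTN2. Of the 13 liver effectors none had H3K4me3.

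Potassium channels set the resting potential and repolarise excitable cells. Of 65 potassium channel genes (KCN) with H3K4me3, 47 had an H3K4me3/H3K4me1 peak (72.3%, 60.4 to 81.7). No H3K27ac was called within 1 kb of any TSS in 46 of the 47, KCNIP3 excepted, and in 90.0% of the whole class. Among the widest were KCNA1 (3211 bp), a channel of axons, KCNK9 (2667), KCNIP3 (2645), KCNA3 (2601), KCNF1 (2552), KCND3 (2544), KCNK12 (2524), KCNH2 (2397) and KCNC4 (2382). KCNH2 carries a repolarising current of the heart. Of 46 mouse orthologs 28 had the same combination and 4 had H3K27ac. Calcium and sodium channel genes gave 14 of 27, and 10 of the 14 mouse orthologs had the same combination. Solute carriers gave 93 of 250. Axon guidance genes gave 28 of 60, with SLIT2 (4058 bp), a secreted repellent, and SEMA3F (3700 bp), a semaphorin, the widest. Of the 28 mouse orthologs of the axon guidance genes, 14 had H3K27ac.

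Several sets of genes used in every cell, and the zinc finger genes (ZNF), had shares below the 27.8% of all genes with H3K4me3. Of 16 housekeeping genes with H3K4me3, 1 had an H3K4me3/H3K4me1 peak (1.11 to 28.3), RPL13A, and it also had H3K27ac within 1 kb of a TSS. Ribosomal proteins gave 9 of 79 (11.4%, 6.11 to 20.3) and proteasome genes 5 of 45 (4.84 to 23.5). Complex I genes gave 8 of 47 (17.0%, 8.89 to 30.1) and zinc finger genes 29 of 221 (9.29 to 18.2). The intervals of the housekeeping and complex I genes include 27.8%, so their shares could not be told from that of all genes. The 9 ribosomal genes included RPS15 (2721 bp), RPS21 (2654), RPL28 (2573), RPS9 (2334), RPLP2 (2313), RPS2 (1940), RPL13A (1691) and RPL3L (1014). RPL3L is the form of striated muscle and had no H3K4me3 in mouse; the other 8 had all 3 marks there. The 5 proteasome genes were PSMA7, PSMB10, PSMG4, PSMB3 and PSMB8, where PSMB8 and PSMB10 are subunits of the immunoproteasome. Polycomb and related regulators gave 6 of 28 (21.4%, 10.2 to 39.5), which could not be told from the 27.8% of all genes. They were KMT2B, KDM6B, PHF1, CBX7, RNF2 and BMI1, and RNF2 and BMI1 also had H3K27ac within 1 kb of a TSS.

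The mouse embryos give a measure that the choice of peaks did not use. Of the 3724 genes, 3300 had an ortholog, taken as the gene of the same symbol, and a mark counted in mouse where a peak lay within 1 kb of a TSS. In mouse forelimb 45.5% of these (43.8 to 47.2; 1502 genes) had the same combination, against 22.6% of all orthologs, and 27.7% had all 3 marks. A further 15.2% had H3K4me3 alone, 4.12% had H3K27ac and no H3K4me1, and 7.45% had no H3K4me3. Thus 92.5% had H3K4me3 in mouse, against 81.9% of all orthologs, and 32.3% (30.7 to 33.9) had H3K27ac, against 52.1%. All orthologs include genes with no H3K4me3 in pig, of which 32.4% had H3K4me3 in mouse. The mouse H3K4me3 share was 98.2% for genes with all 3 marks in pig, 98.1% with H3K27ac and no H3K4me1, and 85.4% for H3K4me3 alone. For genes with all 3 marks in pig the H3K27ac share was 77.7% (76.6 to 78.7), and for genes with H3K4me3 alone it was 26.6% (23.1 to 30.3). Genes of the class without H3K27ac at any pig TSS gave 28.5%. H3K4me3 and H3K4me1 without H3K27ac were found in mouse for 35.2% (31.5 to 39.2) of genes with H3K4me3 alone in pig. With all 3 marks in pig it was 16.6%. The 22.6% of all orthologs includes genes with no H3K4me3 in pig, of which 13.3% had this combination. In the reverse direction, 44.5% of the orthologs with the combination in mouse had an H3K4me3/H3K4me1 peak in pig, as did 40.8% (38.1 to 43.6) of those with H3K4me3 alone in mouse and 15.2% of those with all 3 marks. The share with the same combination depended on how marks were placed: it was 27.6%, against 11.9% of all orthologs, when peaks had to cover the TSS itself, and 19.6%, against 10.3%, with the wider 50% of all peaks. Under these settings H3K27ac was found at 27.5% and 22.8% of the orthologs, against 48.2% and 31.3% of all.

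**Figure D3:**
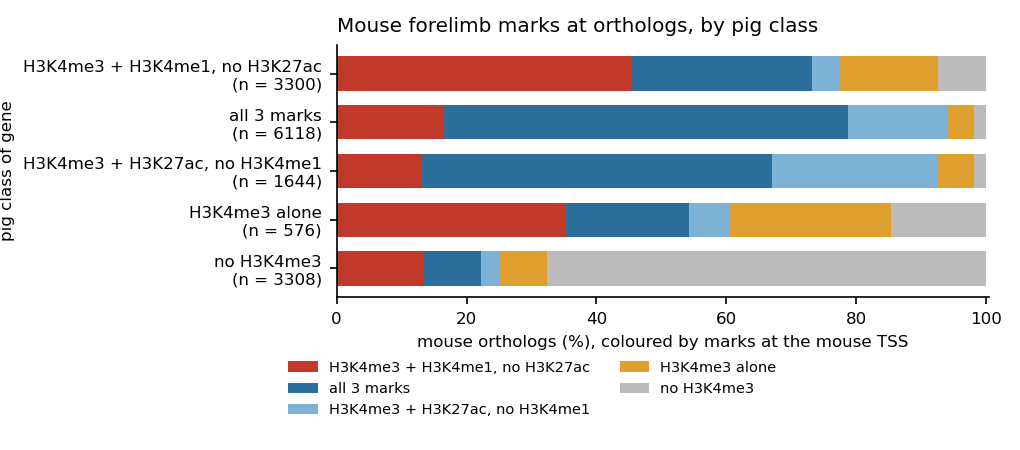
Marks at the mouse ortholog (stacked bars, percent of orthologs) for genes grouped by their class in pig. Of genes with an H3K4me3/H3K4me1 peak in pig, 45.5% had the same combination in mouse and 27.7% had all 3 marks.

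The class was uneven along the genome. The share of H3K4me3 peaks at coding TSSs that were H3K4me3/H3K4me1 peaks was 14.3% where the G+C content within 50 kb on each side was under 40%, 16.2% at 40 to 45%, 28.3% at 45 to 50%, then 969 of 2423 peaks at 50 to 55% and 60.2% at 55% or more. The median regional G+C content was 49.9% for these peaks and 44.6% for peaks with all 3 marks. Gene density went with it, from a median of 1 to 5 genes in the window. By chromosome, counted over all H3K4me3 peaks whether at a TSS or not, the share was 39.6% on chromosome 12 and 21.8% on X, with 1 of 37 on Y. The part of regional base composition in the class was not tested.

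**Figure D4:**
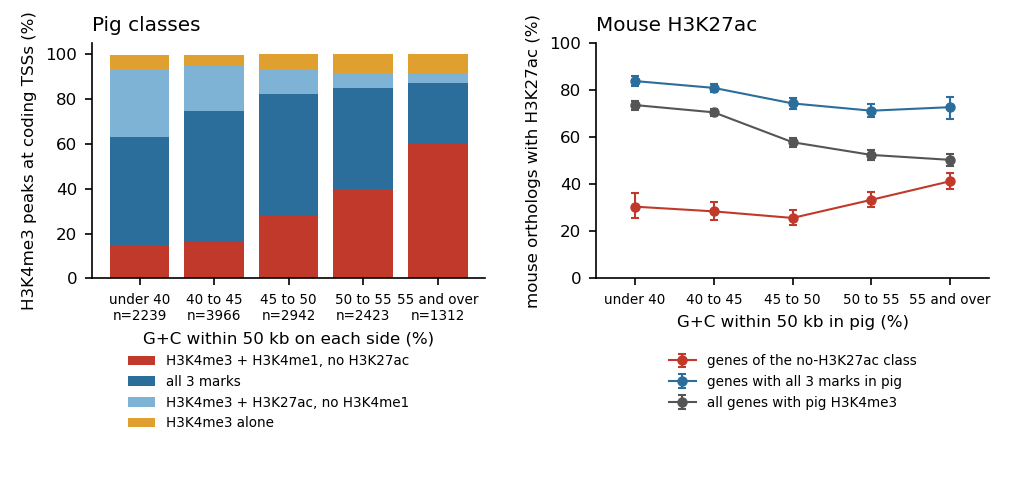
Left, share of pig H3K4me3 peaks at coding TSSs in each class (stacked bars, percent), by G+C content within 50 kb; right, share of mouse orthologs with H3K27ac (percent, with 95% Wilson intervals) in the same bins. The H3K4me3/H3K4me1 share goes from 14.3% to 60.2%, and the mouse H3K27ac share of these genes lies between 25.7% and 41.3%.

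Mouse H3K27ac did not follow the same order among these genes: it was found at 30.5%, 28.5%, 25.7%, 33.4% and 41.3% of their orthologs in the 5 bins, from low to high G+C. Over the orthologs of all genes with pig H3K4me3 the shares went the other way, from 73.7% to 50.4%. Gene groups differed in where they lay. Below 50% regional G+C, 45 of 62 regulators of outside tissues with H3K4me3 had an H3K4me3/H3K4me1 peak (72.6%), against 19.5% of all genes with H3K4me3 there, and potassium channels gave 29 of 45. Of ribosomal protein genes 0 of 46 did, which allows up to 7.71% by the interval, and of proteasome genes 1 of 31. At 50% or more, ribosomal proteins gave 9 of 33, proteasome genes 4 of 14 and complex I genes 6 of 15, where 47.7% of all genes did. The regulators thus had such peaks in both kinds of region, and the 9 ribosomal proteins in G+C-rich ones, with a median of 58.1% and of 9 genes in the window.

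Some H3K4me3/H3K4me1 genes lay in runs. Taking peaks less than 50 kb apart as neighbours gave 2634 runs, of which 2053 held 1 gene and 218 held 3 or more, with 981 genes in these. The longest had 23 genes each. One, at chr12:945046-1234131, ran from DUS1L to OXLD1 and held RFNG, P4HB and GPS1, and one, at chr6:63537678-63864131, held SDF4, DVL1 and MXRA8. A run of 18 genes at chr4:275020-503324 ran from C4H8orf82 to SCX, the tendon factor. Genes in runs of 3 or more had H3K27ac in mouse at 43.1% (39.8 to 46.4) of orthologs, and genes with no neighbour at 25.6% (23.6 to 27.6). The share with the same combination in mouse was 42.1% and 48.4%.

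Most of the promoters were rich in CpG. Over 1 kb centred on the TSS, 73.7% (72.2 to 75.1) of H3K4me3/H3K4me1 peaks at a TSS had an observed over expected CpG ratio of at least 0.6 and a G+C content of at least 50%. With all 3 marks 85.2% did, and for H3K4me3 alone 66.4%. Counted per coding gene at its 5′ TSS, the shares were 69.7% for genes of the class, 80.3% with all 3 marks, 61.2% for H3K4me3 alone and 7.10% for genes without H3K4me3. The groups within the class differed: the rule was met at 51 of 56 peaks of outside regulators, at 39 of 50 of potassium channels and at 5 of 11 of neuronal effectors.

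**Figure D5:**
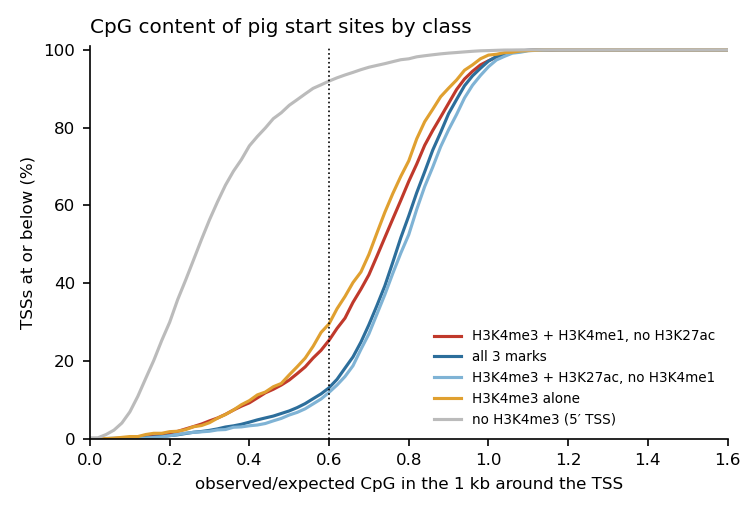
Cumulative share of TSSs (vertical axis, percent) by the observed over expected CpG ratio within 1 kb centred on the TSS (horizontal axis), for each class of pig H3K4me3 peak and for the 5′ TSSs of coding genes without H3K4me3. The median ratio was 0.73 for H3K4me3/H3K4me1 peaks, 0.77 with all 3 marks and 0.28 without H3K4me3.

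Short motifs were counted on both strands in the 300 bases from 250 before to 50 after the TSS of the 3556 peaks at coding genes. GC boxes (GGGCGG) were present in 73.6% and in 74.6% with all 3 marks, against 49.0% of the promoters of all coding genes, which were taken at the 5′ TSS and not at the TSS nearest a peak. The ETS motif CCGGAAG was present in 11.3% (10.3 to 12.4) against 17.4% (16.5 to 18.4) with all 3 marks and 10.6% of all promoters. The YY1 motif AAGATGG was present in 3.23% against 6.63%, and 5.20% of all. The E box CAGCTG gave 17.0% against 14.1%, and 16.3% of all. TATAAA was found in 5.26% of both classes and in 11.6% of all promoters. These are matches of letters, not bound sites, and ETS and YY1 matches were fewer in the H3K4me3/H3K4me1 promoters than in those with all 3 marks.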

How the data were processed

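The 3 histone modifications were profiled by ChIPmentation, in which a transposase adds adapters to antibody-bound chromatin, with 1 µg of antibody against H3K4me3, H3K27ac or H3K4me1. Per the design text, chromatin was fixed with 1% formaldehyde, reads were 50 bp or cropped to that from 100 bp, alignment was to mm10 (GRCm38) for mouse and susScr11 (Sscrofa11.1) for pig, and broad peaks passed an irreproducible discovery rate below 0.01. The tools were Bowtie2 2.3.5, SAMtools 1.9, deepTools 3.5, Trimmomatic 0.39 and FastQC 0.11.9, per the submitters' processing notes. Which program called the peaks is not stated there. The authors deposited peak starts and ends only, with no score, signal or depth, as 1 consensus list per species and modification.

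Here, pig H3K4me3 peaks were classed by overlap of 1 bp or more, which was tested on 400 simulated peaks with 0 wrong. A peak belonged to a gene within 1 kb of any TSS in the RefSeq annotation of Sscrofa11.1 (pseudogenes, tRNA, rRNA and immunoglobulin segments left out). Orthologs were the 14946 genes with the same symbol and 1 coding record in each species. List symbols with more than 1 record, 3 in number, were left out. Promoter sequences were read from the Sscrofa11.1 genome. Python 3.11.15, numpy 2.4.6, pandas 2.3.3 and matplotlib 3.10.9 were used. No test was run. Named are all list genes with a member peak in lists of up to 15 such genes, otherwise the widest 10 or fewer, the widest 10 peaks at coding TSSs, the 5 peaks at coding TSSs nearest the border on each side and the longest runs of genes. The largest families (ZNF, solute carriers) are not listed gene by gene. Some genes and sequences that meet this rule are not reported here. Members and lists were chosen with earlier results of these data known. The alternatives varied the overlap, TSS window, peak width, chromosomes and CpG rule.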

Additional observations from a re-analysis of the deposited data

How the results depend on the processing

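No paired analysis was possible because each modification has a single consensus list with no value per replicate, and for the same reason no replicate could be left out. Of 44 alternatives, 18 moved a result by less than its counting interval or, for counts, by less than 1.5 times, and 26 by more. In each alternative with a value for all orthologs, the class stayed below them in mouse H3K27ac and above them in the same combination; the TSS and CpG shares were not recomputed for the other classes. Keeping the wider 50% of the peaks of each list gave 2212 peaks and 1877 genes, 80.8% at a TSS, 22.8% of orthologs with H3K27ac, 19.6% with the same combination in mouse and 79.2% meeting the CpG rule. Requiring H3K4me1 over 50% of the peak gave 2349 genes, 56.5% at a TSS, 25.5% with mouse H3K27ac, 49.3% with the same combination and 68.0% meeting the CpG rule. Regional G+C below 50%, an alternative chosen after seeing the data, gave 3312 peaks, 1848 genes, 57.3%, 27.5% and 68.7% for the TSS, mouse H3K27ac and CpG shares. Requiring the peak to cover the TSS gave 56.0%, 27.5% and 27.6% for the TSS share, mouse H3K27ac and the same combination. A window of 2.5 kb gave 68.7% at a TSS and 35.7% with mouse H3K27ac. The 5′ TSS alone gave 27.6% and 41.4%, and genes with no H3K27ac at any pig TSS 28.5% and 47.9%, for mouse H3K27ac and the same combination. A CpG ratio of 0.75 with G+C of 55% gave 44.4%. With the wider 50%, mouse H3K27ac was thus more frequent than the same combination, the reverse of the 32.3% and 45.5% reported. The share with the same combination ranged from 19.6% to 49.3%, and the cause was not tested.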

Other observations

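The 2280 H3K4me3/H3K4me1 peaks away from any annotated TSS made up 38.1% of the class (36.9 to 39.3), against 17.5% of peaks with all 3 marks and 55.8% of H3K4me3 alone. Of these, 43.6% were intergenic, 39.4% intronic and 17.0% exonic, at a median of 11.3 kb from the nearest TSS. They were narrower than those at TSSs, with a median width of 1262 bp, and 43.6% met the CpG rule at their centre, against 41.5% of the peaks with all 3 marks away from a TSS.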
